A study of Rattus norvegicus with 35 samples.

Results

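Cdkn1a, Mdm2, Ccng1 and Gadd45a, which act downstream of p53 in growth arrest or feed back on p53 itself, were followed across neonatal rat heart cells exposed to any one of 3 stressors. A probe-set was taken as a member when the array annotation gave it 1 gene symbol and that symbol was one of these 4, which left 11 of 8740 probe-sets and 4 of 4736 genes. Cdkn1a had 2 probe-sets (U24174_at, L41275cds_s_at), Mdm2 had 4 (rc_AI639488_at, AA875509_at, AA108308_s_at, AA108308_i_at), Ccng1 had 1 (X70871_at) and Gadd45a had 4 (L32591mRNA_at, L32591mRNA_g_at, rc_AI070295_at, rc_AI070295_g_at). Probe-sets of a gene share its transcripts and are not replicates of each other. Of the 11, AA108308_i_at lay at the lower limit of measurement on all 35 arrays and gave no change, and the other 10 were above that limit on all 35 arrays.

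Cultures enriched for cardiac myocytes (CM) and cultures of fibroblasts (FB), both prepared from neonatal rat hearts, were studied on Affymetrix rat genome arrays. Stressed cells underwent cyclic stretch for 24 h (mechanical stress, MS) on plates coated with collagen I, or a single dose of 8.5 Gy X-rays (ionising radiation, IR) or 10 J/m2 UVC (UV), and RNA of the irradiated cells was taken 24 h later. Controls were kept on the same plates without stretch (MS) or sham-irradiated (IR and UV). Every group held 3 arrays except the CM controls of UV, which held 2, and arrays with the same experiment number formed 17 pairs. After IR and UV, CM were enriched further by elutriation before RNA isolation, whereas the CM-enriched cultures of MS and all FB were not, so that CM samples still held non-myocytes and FB samples some myocytes. As a check of these labels, the summed level of 11 cardiomyocyte markers was 36395 to 59394 on CM arrays, against 3588 to 26109 on FB arrays, and none of these markers lay at the lower limit on all arrays of an FB group. The sum of 12 fibroblast markers did not part the populations, with 7677 to 38596 on CM arrays, against 32135 to 46467 on FB arrays. It overlapped in the CM-enriched cultures of MS (31438 to 38596 stretched, 32523 to 34681 in controls). In such bulk samples fewer cells of a type and less RNA per cell cannot be told apart.

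p53 is a transcription factor that becomes stable and active when DNA is damaged. Cdkn1a encodes p21, which binds and inhibits cyclin-dependent kinases and thereby arrests the cell cycle, and Gadd45a encodes a small protein induced by growth arrest and DNA damage. Mdm2 is the ubiquitin ligase that marks p53 for degradation, so that its induction by p53 closes a negative feedback loop. Ccng1 encodes cyclin G1, an atypical cyclin that recruits protein phosphatase 2A to Mdm2. In the heart, myocytes leave the cell cycle soon after birth whereas fibroblasts continue to divide.

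p53 binds a pair of half-sites of 10 bases, each made of 3 purines, a C, 2 bases that are A or T, a G and 3 pyrimidines, and the pattern reads the same on both strands. Windows from 250 bases before to 50 bases after the transcription start (RefSeq, GRCr8) were found for all 4 genes and searched for 2 half-sites in direct succession. Cdkn1a and Ccng1 each held such a pair with 1 mismatch over its 20 bases, which only 24 of 33469 rat promoters of the same length did (0.0717%). The bases from 250 to 131 before the start are shown for these 2 genes, since they carry the pair of half-sites, which is in capitals.
Cdkn1a promoter: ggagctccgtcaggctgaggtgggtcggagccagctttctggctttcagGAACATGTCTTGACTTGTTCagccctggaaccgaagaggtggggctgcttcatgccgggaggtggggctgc
Ccng1 promoter: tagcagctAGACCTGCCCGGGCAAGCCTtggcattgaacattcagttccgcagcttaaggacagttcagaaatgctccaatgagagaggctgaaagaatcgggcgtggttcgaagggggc
The Cdkn1a stretch covers chr20:7150682-7150801 on the plus strand, and its pair of half-sites (chr20:7150731-7150750) lies 201 to 182 bases before the start. The Ccng1 stretch covers chr10:25685007-25685126 on the minus strand, with the pair (chr10:25685099-25685118) 242 to 223 bases before the start. The closest pair in the Mdm2 window had 5 mismatches and that in the Gadd45a window had 4. An exact single half-site was held by 7.98% of rat promoters, and by those of Cdkn1a, Ccng1 and Gadd45a among the members. A match is a description of the letters in this window and was not tested for binding. The annotated genes of Cdkn1a (chr20:7150820-7161373) and Mdm2 (chr7:55176558-55201757, minus strand) begin upstream of the start used here. The whole Mdm2 window (chr7:55200742-55201041) lies inside its annotated gene. Bases outside these windows were not searched, so sites elsewhere in the 4 genes would be missed.

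After UV Cdkn1a, Mdm2 and Ccng1 were up-regulated in both populations. After IR the same 3 genes were called in CM. In irradiated FB only Mdm2 was called, although Cdkn1a and Ccng1 were higher in all 3 pairs there, and no member's change after IR was found to differ between the populations (smallest adjusted p = 0.585). Gadd45a was not called after either kind of radiation, although L32591mRNA_at and L32591mRNA_g_at were also higher in all 3 pairs of irradiated FB. After MS no member was called. A probe-set was called when its adjusted p in limma, taken over all 8740 probe-sets, was below 0.05. In CM-enriched fractions 5 of the 11 probe-sets were higher after UV and 3 after IR, where 8.62% and 0.286% of all probe-sets were called higher. In FB 5 were higher after UV and 1 after IR, where 11.7% and 0.0343% of all were. No member was lower in any of these 4 comparisons, where 8.16% and 0.446% (CM, UV and IR) and 11.2% and 0.0458% (FB, UV and IR) of all probe-sets were. After MS the share of all probe-sets called was 0 in both populations and both directions. Every treated array lay above every control array for 6 members in CM and 5 in FB after UV, where 16.6% and 15.9% of all probe-sets did, and for 4 in CM and 5 in FB after IR, where 4.35% and 2.39% did. After MS this held for 0 members in either population, where it held for 3.35% (CM) and 2.72% (FB) of all. Values below are normalized intensities on a linear scale unless a log2 change is named. Standard errors and p-values rest on 1 estimate of the spread for each probe-set, from all arrays in 1 fit. The standard error of a probe-set is therefore the same in each treated-control comparison with 3 pairs.

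**Figure D1:**
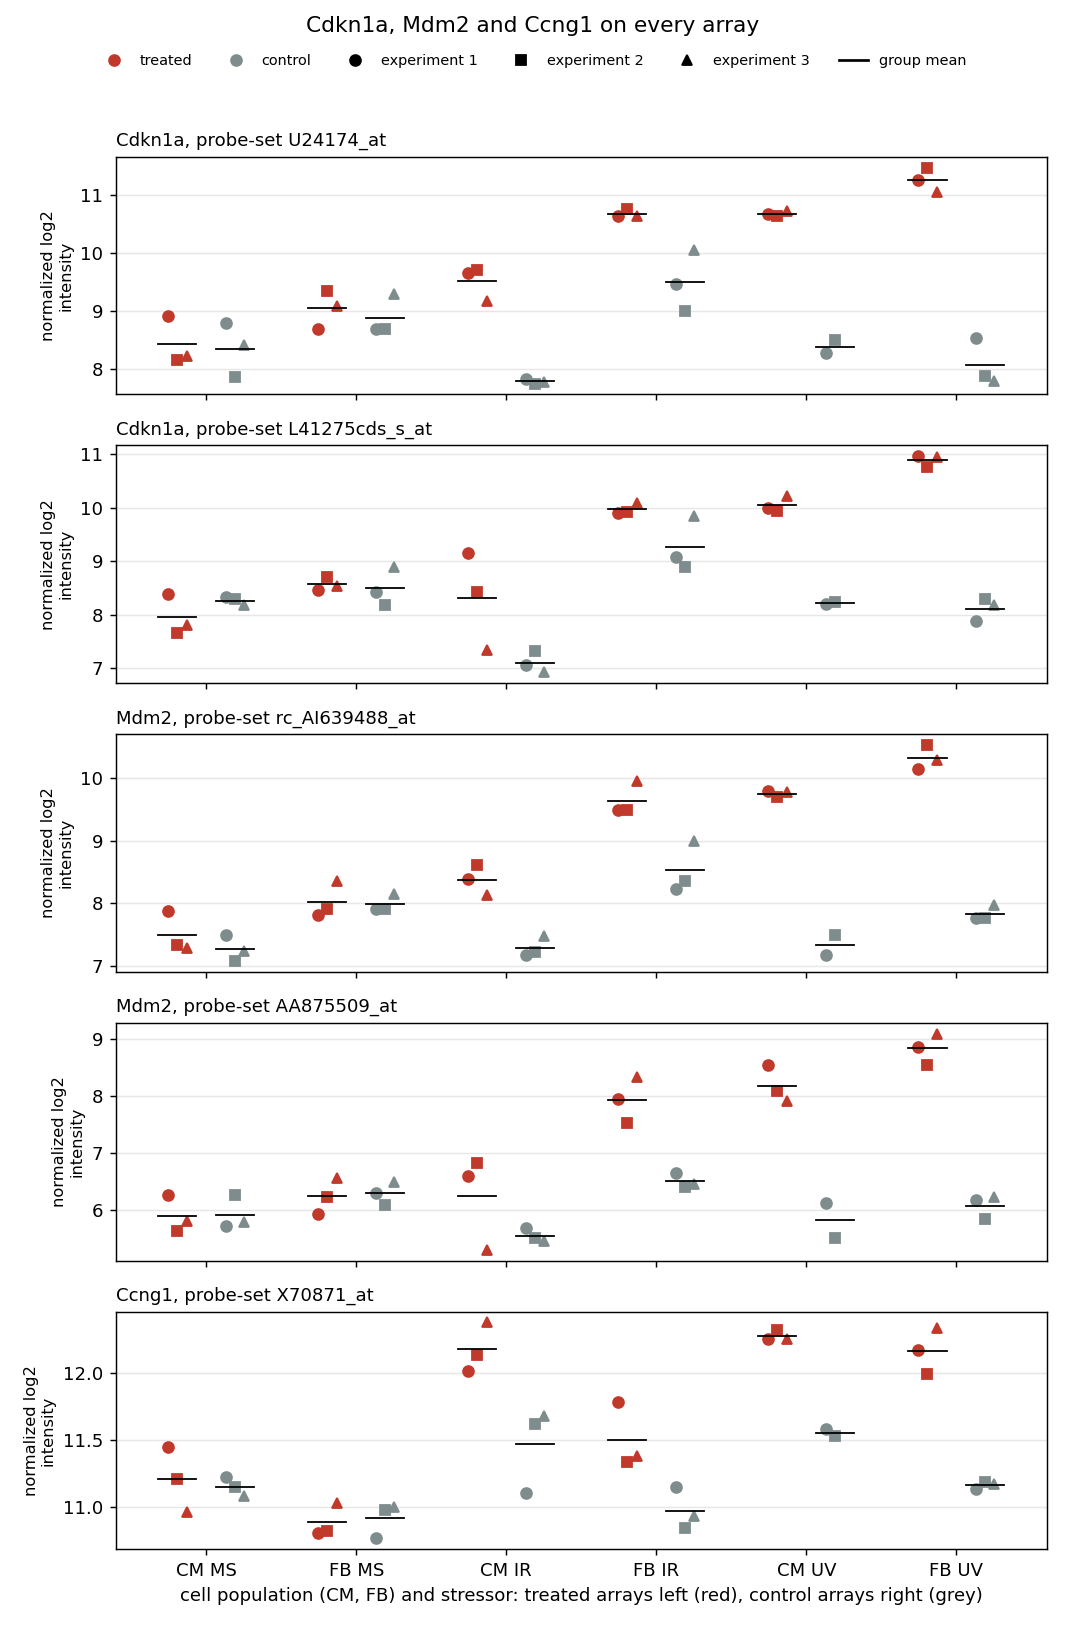
Normalized log2 intensity (vertical axes) of 5 probe-sets on every array, by cell population and stressor (horizontal axis), with treated arrays in red to the left of their controls in grey, a symbol for each experiment number and a line at the group mean. After UV all treated arrays lie above all controls, whereas the MS groups overlap.

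The largest changes of the members were those of Cdkn1a in FB after UV. On U24174_at the UV-treated FB read 2456, 2849 and 2132, against 370, 234 and 220 in sham-treated FB, so that the lowest treated array was far above the highest control. The log2 change was 3.20 ± 0.23 (SE, n = 3 pairs), a 9.22-fold increase (adjusted p = 8.29e-07). On L41275cds_s_at the readings were 2002, 1744 and 1980 in UV-treated FB, against 235, 312 and 290 in controls, a log2 change of 2.78 ± 0.27 (adjusted p = 9.85e-06). Both probe-sets therefore placed all UV-treated FB arrays above all controls.

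In CM-enriched fractions, U24174_at read 1631, 1594 and 1695 after UV, against 307 and 361 in controls. The log2 change over the 2 pairs was 2.28 ± 0.28 (adjusted p = 1.67e-04). L41275cds_s_at read 1028, 986 and 1191 after UV, against 292 and 302 in controls, with a log2 change of 1.76 ± 0.33 (adjusted p = 0.00308). The groups did not overlap on either probe-set, but the call of L41275cds_s_at was lost without pair 1 (adjusted p = 0.0506).

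IR raised Cdkn1a in CM-enriched fractions, with 1 irradiated array lower than the others. U24174_at read 804, 838 and 572 after IR, against 227, 214 and 219 in sham-irradiated CM, a log2 change of 1.73 ± 0.23 (adjusted p = 0.00247). L41275cds_s_at read 572, 345 and 161 after IR, against 133, 160 and 121 in controls. Its irradiated array 3 was barely above the highest control, and its log2 change of 1.21 ± 0.27 did not pass (adjusted p = 0.0713). It passed in 5 of 12 alternatives (adjusted p down to 0.0102), among them the random block for the experiment (adjusted p = 0.0116) and leaving out pair 3 (log2 change 1.60, adjusted p = 0.0269). Array 3 was the only CM array of IR read in scan 1, the other 5 belonging to scan 2, and the part of the scan in its low reading was not tested.

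In FB after IR, Cdkn1a was higher on all irradiated arrays, and its controls were spread. U24174_at read 1598, 1739 and 1594 in irradiated FB, against 703, 512 and 1061 in sham-irradiated FB, and L41275cds_s_at read 959, 973 and 1089, against 540, 473 and 923. Neither group pair overlapped. The log2 changes of 1.18 ± 0.23 (adjusted p = 0.0863) and 0.70 ± 0.27 (adjusted p = 0.649) did not pass, and the change per pair on U24174_at was 1.18, 1.76 and 0.59. Without pair 3, whose control was the highest, U24174_at passed (log2 change 1.47, adjusted p = 0.0403), as it did in 3 of the other 9 alternatives, among them the random block for the experiment (adjusted p = 0.0145).

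Mdm2 followed on 2 of its probe-sets. On rc_AI639488_at UV-treated FB read 1132, 1484 and 1260, against 217, 217 and 251 in controls, a log2 change of 2.49 ± 0.13 (adjusted p = 9.98e-08). UV-treated CM read 886, 828 and 882 on it, against 145 and 180 in controls, a log2 change of 2.41 ± 0.17 (adjusted p = 4.09e-06, n = 2 pairs in limma). These are rises of 5.64-fold and 5.31-fold, and the treated arrays lay well above all controls. AA875509_at read 466, 375 and 546 in UV-treated FB, against 72, 57 and 75 in controls, and 374, 272 and 240 in UV-treated CM, against 70 and 45 in controls. Its log2 changes were 2.76 ± 0.26 in FB (adjusted p = 6.99e-06) and 2.50 ± 0.31 in CM (adjusted p = 2.05e-04).

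After IR, rc_AI639488_at was the member probe-set that passed in both populations. It read 334, 390 and 279 in irradiated CM, against 145, 149 and 177 in controls, a log2 change of 1.08 ± 0.13 (adjusted p = 0.00176). In irradiated FB it read 717, 717 and 992, against 300, 326 and 513 in controls, a log2 change of 1.12 ± 0.13 (adjusted p = 0.0112). By p it ranked 2 of the 8740 probe-sets in FB and 17 in CM. The call in FB was lost without pair 1 (adjusted p = 0.0954) or pair 2 (adjusted p = 0.107), while the log2 change stayed between 1.04 and 1.20 over all alternatives.

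AA875509_at was less even after IR. Irradiated FB read 245, 184 and 324, against 101, 85 and 88 in controls, and irradiated CM read 96, 113 and 39, against 51, 46 and 44 in controls. The FB groups lay apart, whereas CM array 3 fell below all 3 of its controls. The log2 changes, 1.43 ± 0.26 in FB (adjusted p = 0.0734) and 0.69 ± 0.26 in CM (adjusted p = 0.321), did not pass. That in FB passed in 3 of 10 alternatives (adjusted p down to 0.00657), that in CM in 0 of 12.

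The probe-sets of Mdm2 did not behave alike. AA108308_s_at read 240, 344 and 266 in UV-treated CM, against 209 and 202 in controls, and 210, 258 and 281 in UV-treated FB, against 146, 187 and 239 in controls. Its log2 changes of 0.48 ± 0.24 (adjusted p = 0.217) and 0.41 ± 0.20 (adjusted p = 0.184) were below those on the other 2 probe-sets, and its FB groups overlapped. Where on the transcript each probe-set lies was not analysed here. Over the 17 pairs the changes of rc_AI639488_at and AA875509_at had a Pearson correlation of 0.94, and those of rc_AI639488_at and AA108308_s_at one of 0.62, as a description of pairs that share stressor and experiment.

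**Figure D2:**
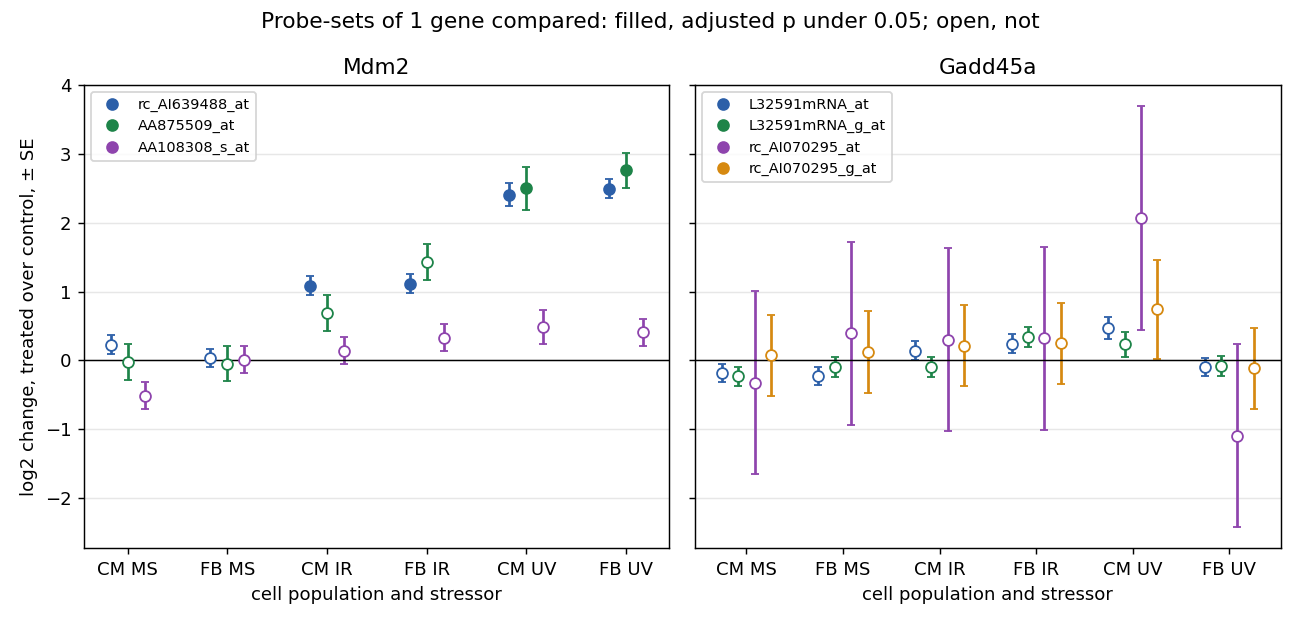
Log2 change of treated over control with its standard error (vertical axis) for 3 probe-sets of Mdm2 and 4 of Gadd45a by cell population and stressor (horizontal axis), with filled symbols where the adjusted p was below 0.05. AA108308_s_at stays between -0.52 and 0.48 where the other Mdm2 probe-sets reach 2.41 to 2.76 after UV, and no Gadd45a symbol is filled.

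The log2 changes of Ccng1 after UV were smaller than those on both Cdkn1a probe-sets and on the 2 responsive Mdm2 probe-sets, with smaller standard errors, but larger than those on AA108308_s_at. X70871_at read 4893, 5114 and 4893 in UV-treated CM, against 3055 and 2957 in controls, and 4618, 4075 and 5163 in UV-treated FB, against 2245, 2331 and 2305 in controls. Its log2 change was 0.74 ± 0.11 in CM (adjusted p = 5.72e-04), and in FB it rose 2.00-fold (95% interval of the log2 change 0.81 to 1.19, adjusted p = 4.18e-06). After IR it read 4135, 4503 and 5330 in CM, against 2193, 3151 and 3272 in controls, a log2 change of 0.71 ± 0.09 (adjusted p = 0.00176). No irradiated CM array overlapped a control, although the control of pair 1 was low. In irradiated FB it read 3532, 2576 and 2663, against 2264, 1831 and 1946 in controls, and its log2 change of 0.53 ± 0.09 did not pass (adjusted p = 0.0586). It passed in 3 of 10 alternatives (adjusted p down to 0.0106), among them the random block for the experiment (adjusted p = 0.0419). With the array lot as a block, which leaves pair 2 to carry the comparison, the change in irradiated CM was 0.52 and was not called (adjusted p = 0.198).

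Gadd45a was not called in any of the 6 comparisons. L32591mRNA_at read 743, 495 and 444 in UV-treated CM, against 592 and 324 in controls, and its log2 change of 0.47 ± 0.16 came nearest to passing (adjusted p = 0.0691). In UV-treated FB it read 511, 555 and 458, against 544, 608 and 479 in controls, a log2 change of -0.10 ± 0.13 (95% interval -0.38 to 0.19). Each UV-treated FB array was below its own control on this probe-set, by less than the spread among the controls. The same holds for L32591mRNA_g_at, which read 593, 822 and 630 in UV-treated FB, against 649, 834 and 678 in controls (95% interval -0.40 to 0.23). In FB the intervals of both probe-sets thus stop far short of the rises of Cdkn1a, and of Mdm2 on rc_AI639488_at and AA875509_at, on the same arrays. They overlap the interval of the third Mdm2 probe-set, AA108308_s_at (-0.02 to 0.84). In irradiated FB the log2 changes were 0.24 ± 0.13 on L32591mRNA_at and 0.34 ± 0.14 on L32591mRNA_g_at (adjusted p = 0.803 and 0.692 in limma). On both, all 3 pairs were higher, against 2 of 3 on rc_AI070295_at and 1 of 3 on rc_AI070295_g_at. Irradiated FB array 3 and its control were low together on L32591mRNA_at (251, against 212), where the other arrays of the experiment read 625 and 580, against 525 and 490.

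The remaining Gadd45a probe-sets varied more. rc_AI070295_at ranged between 12 and 272 and rc_AI070295_g_at between 36 and 277 over all arrays, and within groups the first spread from 14 to 272 (irradiated FB). The standard errors of their log2 changes were 1.33 to 1.63 and 0.59 to 0.72. On rc_AI070295_at the 95% interval in CM after UV was -1.48 to 5.61, which holds the Cdkn1a rises there. In FB after UV it was -3.99 to 1.80, which is wide but ends below the Cdkn1a rises on the same arrays. On rc_AI070295_g_at the 95% interval of the log2 change in FB after UV was -1.40 to 1.17, which excludes a rise as large as those of Cdkn1a on the same arrays. Their changes over the 17 pairs correlated at 0.97 with each other and at 0.04 and 0.00 with those of L32591mRNA_g_at, again as a description. The L32591mRNA pair correlated at 0.73.

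After MS none of the 10 probe-sets above the lower limit was called. U24174_at read 483, 285 and 297 in stretched CM, against 440, 231 and 339 in controls, and 413, 649 and 545 in stretched FB, against 409, 411 and 624 in controls. Its log2 changes were 0.08 ± 0.23 in CM (95% interval -0.41 to 0.57) and 0.16 ± 0.23 in FB (-0.33 to 0.65). For rc_AI639488_at they were 0.23 ± 0.13 (-0.06 to 0.52) and 0.03 ± 0.13 (-0.26 to 0.33), and for X70871_at 0.05 ± 0.09 (-0.14 to 0.24) and -0.03 ± 0.09 (-0.22 to 0.16). For these 3 probe-sets the intervals hold no 2-fold change. At an unadjusted p below 0.05, 1 of the 11 member probe-sets stood out in CM and 0 in FB. That one was AA108308_s_at, with 170, 110 and 127 in stretched CM, against 175, 222 and 178 in controls (log2 change -0.52 ± 0.20, unadjusted p = 0.0227 and adjusted p = 1 in limma).

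**Figure D3:**
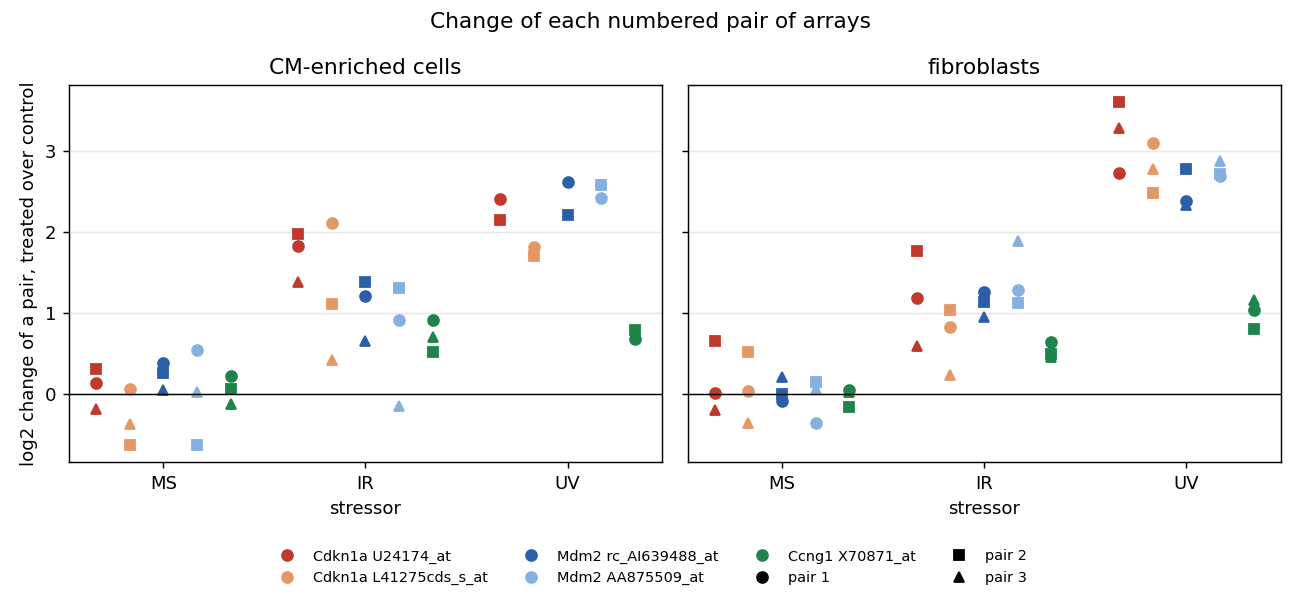
Log2 change of each numbered pair, treated over control (vertical axis), by stressor (horizontal axis) for the 5 probe-sets called after UV, in CM-enriched cells (left) and FB (right). Pair changes after MS scatter about 0, those after IR lie between -0.15 and 2.10, and those after UV between 0.68 and 3.60.

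UV and IR were compared within each population as the difference of their changes, each over its own controls. The doses are of different kinds and were not matched. In FB the change after UV exceeded that after IR on 5 member probe-sets, where 7.12% of all probe-sets did, and fell short of it on 0, where 7.27% did. The difference was 2.03 ± 0.32 on U24174_at (adjusted p = 9.82e-04), 2.08 ± 0.38 on L41275cds_s_at (adjusted p = 0.00280), for Mdm2 1.38 ± 0.19 on rc_AI639488_at (adjusted p = 3.84e-04) and 1.33 ± 0.36 on AA875509_at (adjusted p = 0.0275) and, for Ccng1, 0.47 ± 0.12 on X70871_at (adjusted p = 0.0216). Without the block for the experiment, or with arrays only scaled, the last 2 were not called (adjusted p = 0.0588 and 0.211 without the block, 0.0658 and 0.108 with scaling only). They were also each lost when single pairs were left out, AA875509_at in 5 of 6 cases (adjusted p up to 0.0994, called only without pair 3 of IR) and X70871_at in 4 of 6 (adjusted p up to 0.0936, called only without pair 1 of IR or pair 2 of UV). The first 3 were called under every alternative run. For Cdkn1a the FB controls of UV and IR differed too. On U24174_at the geometric means were 2462 after UV and 1642 after IR, against 267 and 725 in their controls. On L41275cds_s_at they were 1905 and 1005, against 277 and 618. IR controls were also the higher on rc_AI639488_at (369, against 228) and AA875509_at (91, against 67). For Ccng1 they were the lower (2006, against 2293). The part of the control levels in these differences was not tested.

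In CM the change after UV exceeded that after IR on both responsive Mdm2 probe-sets, where 4.46% of all probe-sets did and 4.55% showed the opposite, and on no other member. The difference was 1.32 ± 0.21 on rc_AI639488_at (adjusted p = 0.00241) and 1.81 ± 0.40 on AA875509_at (adjusted p = 0.0157), the second lost without pair 1 of UV (adjusted p = 0.0608) or pair 2 (adjusted p = 0.0785). With the array lot as a block in IR both were lost (adjusted p = 0.0599 and 0.264). For Cdkn1a it was 0.55 ± 0.36 on U24174_at (95% interval -0.23 to 1.33) and for Ccng1 0.02 ± 0.14 (-0.28 to 0.32). The intervals leave room for a difference of more than 2-fold in Cdkn1a but not in Ccng1.

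No member passed the test for a difference between CM and FB in its change after the same stressor, and 3 of the 11 had an unadjusted p below 0.05, all after UV. After UV the change of Cdkn1a was smaller in CM than in FB by 0.93 ± 0.36 on U24174_at and by 1.02 ± 0.43 on L41275cds_s_at, with unadjusted p = 0.0229 and 0.0337 in limma and adjusted p = 0.165 and 0.201. The third went the other way, Gadd45a on L32591mRNA_at, with a difference of 0.57 ± 0.21 (95% interval 0.11 to 1.02, unadjusted p = 0.0194 and adjusted p = 0.153). For Mdm2 the difference after UV was -0.09 ± 0.21 on rc_AI639488_at (95% interval -0.55 to 0.38), and for Ccng1 -0.27 ± 0.14 (-0.57 to 0.03). After IR it was 0.55 ± 0.32 on U24174_at (-0.15 to 1.24), -0.03 ± 0.19 on rc_AI639488_at (-0.45 to 0.38) and 0.18 ± 0.12 on X70871_at (-0.09 to 0.45). Of all probe-sets, 3.63% and 2.72% differed after UV (higher and lower in CM) and 0.0343% in each direction after IR, and 0 after MS.

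The controls of the 2 populations differed in the experiments with IR. Sham-irradiated CM read 227, 214 and 219 on U24174_at, against 703, 512 and 1061 in sham-irradiated FB, and 133, 160 and 121 on L41275cds_s_at, against 540, 473 and 923. The level of Cdkn1a was therefore lower in CM by 1.72 ± 0.26 and 2.17 ± 0.29 on the log2 scale (adjusted p = 1.90e-05 and 4.05e-06). Mdm2 was lower in CM too, with 145, 149 and 177 on rc_AI639488_at, against 300, 326 and 513 in FB (log2 difference -1.24 ± 0.19, adjusted p = 2.53e-05). Ccng1 went the other way, with 2193, 3151 and 3272 in CM, against 2264, 1831 and 1946 in FB (log2 difference 0.50 ± 0.14, adjusted p = 0.0110), but its groups overlapped and the call was lost without CM control 2 or 3 or FB control 2 (adjusted p = 0.0586 to 0.0773) and with arrays only scaled (adjusted p = 0.186). AA875509_at was lower in CM as well (-0.96 ± 0.29, adjusted p = 0.0167), though not without CM control 3 (adjusted p = 0.0551) or FB control 1 (adjusted p = 0.0610). In all, 1 of the 11 probe-sets was higher and 4 were lower in CM, where 12.4% and 13.2% of all were.

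Among the controls of the other stressors no difference was called for Cdkn1a, and whether the gap differs between stressors was not tested. U24174_at read 307 and 361 in sham-UV CM, against 370, 234 and 220 in sham-UV FB, and 440, 231 and 339 in unstretched CM, against 409, 411 and 624 in unstretched FB. The log2 differences were 0.32 ± 0.29 (adjusted p = 0.535) and -0.54 ± 0.26 (adjusted p = 0.149). On L41275cds_s_at they were 0.10 for UV and -0.24 for MS (adjusted p = 0.954 and 0.644 in limma). Of the members only rc_AI639488_at was called, lower in unstretched CM (179, 135 and 150) than in unstretched FB (241, 241 and 285), with a log2 difference of -0.73 ± 0.19 (adjusted p = 0.00750). Among the controls of MS 0 members were higher and 1 lower, where 10.5% and 12.8% of all probe-sets were, and among those of UV 0 and 0, where 11.2% and 11.9% were. All CM arrays of IR had been deposited on the larger of 2 scales and all FB arrays on the smaller, which cannot be told apart from the population there.

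**Figure D4:**
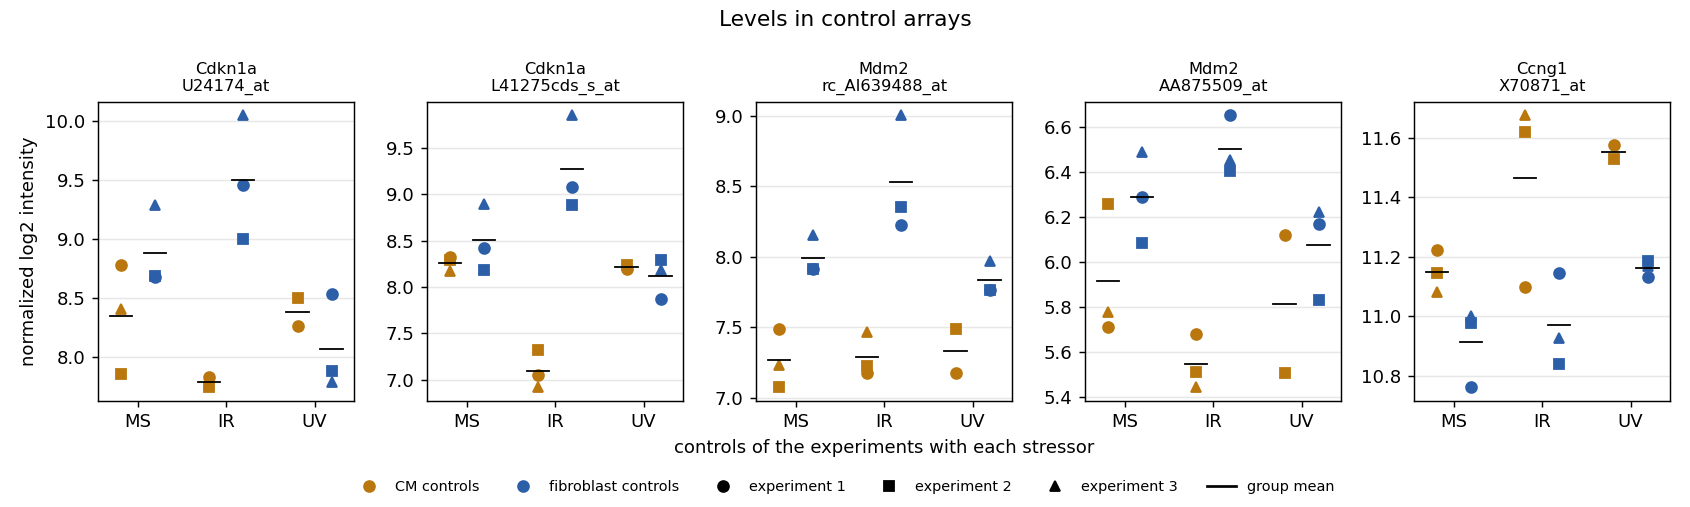
Normalized log2 intensity (vertical axes) of 5 probe-sets in control arrays, CM left of FB, for the experiments with each stressor (horizontal axis), with a symbol for each experiment number and a line at the group mean. For Cdkn1a the CM controls of IR lie below and the FB controls of IR above those of the other stressors, by group mean.

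Ordered by group mean, Cdkn1a on U24174_at was highest in FB after UV (geometric mean 2462), then in FB after IR (1642) and CM after UV (1639), which did not differ beyond their spread. CM after IR (728) and sham-irradiated FB (725) came next and overlapped, and sham-irradiated CM came last (220). Mdm2 on rc_AI639488_at had the same 3 groups on top, FB after UV (1284), CM after UV (865) and FB after IR (799), with the second and the third overlapping. Ccng1 was ordered otherwise, with CM after UV (4966), CM after IR (4630) and FB after UV (4597) within each other's spread, and stretched FB last (1886). For Gadd45a on L32591mRNA_g_at, CM after UV (903) was highest and stretched FB (343) lowest, and the arrays of all neighbouring groups in the order overlapped.

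Over the 17 pairs the changes of Cdkn1a (U24174_at) were followed most closely by those of Abcb1b (r = 0.98), a drug efflux transporter, Mdm2 (0.93), Ephx1 (0.93), microsomal epoxide hydrolase, and Suox (0.91), sulfite oxidase, of 4735 other genes. For Mdm2 (rc_AI639488_at) they were Prnp (0.94), the prion protein, Cdkn1a (0.93), Abcb1b (0.93) and Slc12a4 (0.92), a potassium-chloride cotransporter. For Ccng1 they were Ephx1 (0.96), Abcb1b (0.89), Cdkn1a (0.87) and Mdm2 (0.85). Cdkn1a and Mdm2 were thus in each other's lists, while Ccng1 was in neither of theirs. Those of Gadd45a (L32591mRNA_g_at) were Iqgap2 (0.86), RT1-DOa (0.80), Gabra6 (0.80) and C1qc (0.78), none of which was called in any of the 6 comparisons. These correlations describe pairs that share stressors and experiments, and carry no test.

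Abcb1b and Ephx1 were the closest genes outside the members. The log2 change of Abcb1b was 4.23 ± 0.19 in FB after UV (adjusted p = 2.68e-08), 2.49 ± 0.24 in CM after UV (adjusted p = 3.06e-05), 1.85 ± 0.19 in CM after IR (adjusted p = 7.87e-04) and 1.25 ± 0.19 in FB after IR (adjusted p = 0.0386). Ephx1 changed by 2.89 ± 0.15 in FB after UV, 2.02 ± 0.18 in CM after UV, 2.19 ± 0.15 in CM after IR and 1.49 ± 0.15 in FB after IR (adjusted p = 5.99e-08, 1.97e-05, 3.31e-05 and 0.00248). After MS both lay between -0.18 and 0.06, with adjusted p = 1.

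Other genes of the pathway moved in both directions. Of a list of 48 further p53 targets and regulators, 18 were measured by a probe-set with 1 symbol, and p53 itself was not analysed here. In FB after UV 7 of the 18 were higher and 1 lower, where 11.7% and 11.2% of all probe-sets were. Their median log2 change was 0.13, against 0.01 over all 4736 genes, each by its brightest probe-set. Gdf15, a secreted stress cytokine, rose by 2.52 ± 0.30 (adjusted p = 5.81e-05), Jun by 1.47 ± 0.15 (adjusted p = 1.83e-05), Dusp5 by 1.23 ± 0.15 (adjusted p = 7.33e-05) and Atf3 by 1.11 ± 0.14 (adjusted p = 9.96e-05). Jun and Atf3 are stress-responsive transcription factors and Dusp5 is a phosphatase of MAP kinases. In CM after UV 0 of the 18 were higher and 4 lower, where 8.62% and 8.16% of all probe-sets were, with a median of 0.09 against 0. The 4 were Dusp1 (-1.67 ± 0.39, adjusted p = 0.0123), Igfbp3 (-1.36 ± 0.27, adjusted p = 0.00414), Ier3 (-1.07 ± 0.15, adjusted p = 4.16e-04) and Cd82 (-0.95 ± 0.20, adjusted p = 0.00666). Ier3, an early response gene, was lower in CM but higher in FB (0.70 ± 0.12, adjusted p = 9.81e-04). After IR and MS limma called 0 of the 18 in either population, where at most 0.446% of all probe-sets were called in a direction.

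Among the cyclins, kinases and the replication clamp that p21 binds, 10 of 14 were measured. In CM, where IR lowered 0.446% of all probe-sets, it lowered 2 of these 10, Cdk1, the mitotic kinase (-1.72 ± 0.21, adjusted p = 0.00182), and Ccnb1, its cyclin (-1.63 ± 0.29, adjusted p = 0.0229). In irradiated FB they changed by -1.27 ± 0.21 (adjusted p = 0.0586) and -1.61 ± 0.29 (adjusted p = 0.0734), and none of the 10 was called. After UV neither was called, with -0.52 and -0.50 in CM and -0.07 and -0.18 in FB. Ccnd1, a cyclin of the G1 phase, rose in CM after UV (0.98 ± 0.18, adjusted p = 0.00321), and Ccnd3 fell in CM (-0.56 ± 0.15, adjusted p = 0.0220) and in FB (-1.32 ± 0.12, adjusted p = 6.16e-06). Pcna, the clamp, rose in FB after UV (1.16 ± 0.25, adjusted p = 0.00433) and Ccnd2 fell there (-0.34 ± 0.09, adjusted p = 0.0198). The median over the 10 genes was -0.19 in CM and -0.12 in FB after IR, and 0.10 in CM and -0.13 in FB after UV.

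Of 12 relatives of the members 5 were measured. Ddit3, which encodes the stress factor GADD153, rose in CM after UV (1.63 ± 0.18, adjusted p = 7.61e-05), and Cdkn2b, which encodes the kinase inhibitor p15, rose in FB after UV (0.69 ± 0.13, adjusted p = 0.00188). The other 3, Cdkn1b, Cdkn1c and Ppp1r15a, were not called in any comparison.

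Marker genes of the cell types moved with UV too. Of all probe-sets, 11.7% were called higher and 11.2% lower in FB after UV, and 8.62% and 8.16% in CM. In FB the summed level of 11 cardiomyocyte markers was 8331 to 11727 after UV, against 19285 to 22896 in controls, and 9 of the 11 were lower. The sum of 12 fibroblast markers in FB was 32135 to 37714 after UV, against 38394 to 41641, with 4 lower and 1 (Timp1) higher. That of 5 smooth muscle markers was 3344 to 4651, against 6717 to 7578, with 4 lower. Of 5 macrophage markers Cd14 and Csf1r were higher in FB (sum 282 to 334 after UV, against 192 to 241), and of 5 endothelial markers 0 were called (sum 118 to 164, against 144 to 172). In CM the cardiomyocyte sum was 46837 to 51336 after UV, against 56406 to 59394 in controls, with 3 of 11 lower, and the sum of 12 fibroblast markers was 7677 to 13404, against 10271 to 16654, with 4 of 12 lower. The sums in CM were 6824 to 7906, against 8119 to 10812, for smooth muscle (2 of 5 lower), 208 to 323, against 215 to 290, for macrophages (1 of 5 lower) and 227 to 281, against 220 to 664, for endothelium (0 of 5 called). After IR and MS 0 markers of these lists were called. Itgam, a macrophage marker, was at the lower limit on all FB controls and all treated CM arrays of UV. Their part in the UV changes of the members was not tested.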

How the data were processed

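Total RNA of 35 samples of neonatal rat heart cells had been hybridised to Affymetrix rat genome arrays (1 array a sample). The deposited table holds linear intensities of 8799 probe-sets, which the authors' files give after scaling each array to a common mean, with 26 arrays on a smaller and 9 on a larger scale. The software behind these intensities is not given in the sources used here. The study fitted its own model to signals of single probes, not analysed here. Arrays limit precision by their number. Scan records deposited for 16 arrays (fields of other kinds, per the file headers) were read only for scan and array lot.

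Control probe-sets (59) were left out. Each array was scaled to a common 75th percentile, values below the 20th percentile of all scaled values (6.88) were set to it, and log2 values were quantile normalized. Changes were fitted with limma 3.58.1 in R 4.3.3 (lmFit and eBayes with a variance trend), with the numbered experiment within population and stressor as a fixed block (11 residual degrees of freedom). The third UV-treated CM array lacks a numbered partner and adds nothing to that fit. Control levels of CM and FB were compared in a fit of group means without a block (23 residual degrees of freedom). Adjusted p-values are Benjamini-Hochberg values over 8740 probe-sets, with calls below 0.05, and SE is the moderated standard error. The methods of the study state 3 independent experiments for each stressor.

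Genes were named by the platform annotation where a probe-set had 1 symbol (7006 probe-sets, against 308 with several and 1426 with none), and 6985 of these matched a current rat gene. A gene of a list was represented by its brightest probe-set. The named genes are all member probe-sets, up to 4 genes with the smallest adjusted p among those called from each list of p53 targets, relatives and partners of p21, and the 4 genes closest to each member by Pearson correlation of pair changes. In FB after UV more than 4 p53 targets were called, and Ier3 is named there because it is named in CM. The members, the lists and the promoter pattern were chosen with earlier results of these data known. Promoter windows are those of RefSeq (GRCr8). The fits were tested on simulated data. Alternatives left out single pairs or control arrays, or changed the block, scaling, floor, filter, variance trend and threshold.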

Additional observations from a re-analysis of the deposited data

Results flagged for a closer look

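UV-treated CM array 3 has no control with its number, so that the blocked comparison does not use it. Set against the 2 CM controls of UV, 7 of the 11 member probe-sets read higher on it than on both controls, where 33.9% of all 8740 probe-sets did. The 11 include AA108308_i_at, which lay at the lower limit of measurement on all arrays. Cdkn1a read 1695 on U24174_at, against 307 and 361 in the controls, and 1191 on L41275cds_s_at, against 292 and 302. Mdm2 read 882 on rc_AI639488_at, against 145 and 180, 240 on AA875509_at, against 70 and 45, and 266 on AA108308_s_at, against 209 and 202. Ccng1 read 4893 on X70871_at, against 3055 and 2957. Gadd45a read 949 on L32591mRNA_g_at, against 864 and 652. These are values of 1 array without a test. No group held the 4 arrays needed to test for an outlying sample.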

How the results depend on the processing

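Of 1630 single member values set against an alternative, 1586 kept their direction and side of the threshold, or were uncalled both times, 27 lost the call, 17 gained it and 0 changed sign as a called value. The count of member probe-sets higher in FB after IR, which was 1, became 4 with a random block for the experiment, with a pseudocount of 16 in place of the floor and without dim probe-sets (6427 tested), and 0 at a threshold of 0.005. Leaving out single pairs gave 0 to 2. Each count of 4 added U24174_at, AA875509_at and X70871_at. With the random block the calls higher in FB after IR over all probe-sets rose too, from 3 to 7. The count of members with a larger change after UV than after IR was 5 in FB, and 3 without the block or with arrays only scaled (3 to 4 without single pairs). In CM it was 2, and 0 with the array lot as a block (1 to 2 without single pairs). The count of members higher in CM controls than in FB controls of IR was 1, and 0 with arrays only scaled (0 to 1 without single controls), and that of MS was 0, and 1 with arrays only scaled (AA108308_s_at, adjusted p = 0.0482). The cause was not tested. All other counts of member calls stayed within 1.5 times under the alternatives run.

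The check of the pairing found correlations of the deviations within numbered pairs of 0.06 to 0.80, over 0.1 in 15 of 17 pairs, and 16 of 17 pairs correlated best with their own number. Without the block for the experiment the counts of member calls were the same (5 in CM and 5 in FB after UV, 3 and 1 after IR, 0 and 0 after MS). Calls over all probe-sets went down after UV and in CM after IR. In CM after UV they were 465 higher and 348 lower, against 753 and 713 with the block. In FB after IR they were 2 higher and 4 lower, against 3 and 4, and in FB after MS 1 higher, against 0. The consensus correlation of the random block was 0.32.

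With arrays only scaled, Gadd45a on L32591mRNA_at was called in CM after UV (log2 change 0.52, adjusted p = 0.0396). With 2 or 3 pairs a comparison, the standard errors of the log2 changes after the stressors reached 1.33 to 1.63 on rc_AI070295_at, where a change of the size seen for Cdkn1a was not detectable.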

Other observations

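Of the 24 rat promoters with 2 half-sites in succession and at most 1 mismatch, 3 belong to genes measured by a probe-set with 1 symbol. Beside Cdkn1a and Ccng1 this was Tmsb15b2, a gene chosen after the promoters had been searched. It was not called in any of the 6 comparisons, with log2 changes of 0.35 ± 0.16 in CM after UV (adjusted p = 0.172), 0.27 ± 0.13 in FB after UV (adjusted p = 0.186), 0.26 ± 0.13 in CM after IR (adjusted p = 0.493) and -0.64 ± 0.13 in FB after IR (adjusted p = 0.119).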
